A study of Mus musculus with 13 samples.

Results

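Removal of hotspot H2 in addition to hotspot H3 was examined by setting the acetylated regions of the H23 line against those of the H3 line, 2 of the 13 labelled samples of a study of muscle differentiation. The cells were C2C12, a mouse myoblast line that fuses into myotubes when serum is lowered. The mark was H3K27ac, an acetylation of histone H3 found at active promoters and enhancers, measured by chromatin immunoprecipitation and sequencing. All groups share this line and antibody. The -24 and 0 h groups were taken before or at the change to differentiation medium, and the others after it. The H23 sample carried CRISPR/Cas9 deletions of H2 and H3 and was taken 48 h after the change to differentiation medium. The H3 sample carried the deletion of H3 and was taken at the same 48 h. Other libraries at 48 h came from the H34 line (H3 and H4 deleted), the H1 line, the Myod1 knockout and wild-type (WT) cells, and 6 time course libraries came from cells at -24, 0, 6, 12, 24 and 72 h. The library of CRISPR control cells was not used here.

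Each line had 1 library, so the H23 line and the H3 line were compared without a test, and a deletion cannot be told apart from other differences between the lines. According to the submitters' design text the H23 line was not made from the H3 line. H3 was deleted in cells that already lacked H2, and no library of the H2 deletion alone was used here. The positions of the hotspots are not given in the sources used here, so whether the deleted sequence was missing could not be checked. The lists name no genes and no annotation of their build was used, so markers of C2C12 cells were not checked either.

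Enhancers are stretches of DNA that raise the transcription of genes at a distance, and in clusters of them, called super-enhancers, some sites bind many transcription factors at once. Such sites are what the term hotspot commonly denotes. During myogenic differentiation, MyoD and its partners open muscle enhancers while enhancers of the proliferating myoblast lose acetylation. Regions were therefore read against the time course. A region was called myoblast-stage when peaks at both -24 and 0 h overlapped it but no peak of the 24 or 72 h list did. Late meant the reverse, and stable meant a peak at all 4 of these times.

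The H23 list held 124609 peaks and the H3 list 103134. Peaks with a −log10 p of at least 4 were kept, which left 118887 peaks covering 80.3 Mb in H23 and 101905 peaks covering 58.2 Mb in H3. The weakest peak kept stood at 4.002 in H23 and 4.008 in H3, and the strongest one left out at 3.999 in H23 and 3.996 in H3. Median peak width was 369 bp in H23 and 326 bp in H3, and the median −log10 p of kept peaks was 9.62 in H23 and 9.59 in H3. Read depth was unknown for every library. All −log10 p and fold values are those of the authors' peak caller and describe a peak within its own list.

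The H23 line had more regions of its own than the H3 line. Of its kept peaks, 52873 (44.5%, 95% Wilson interval 44.2 to 44.8) overlapped no kept H3 peak, whereas 22290 (21.9%, 21.6 to 22.1) of the H3 peaks overlapped no kept H23 peak. Merging the overlapping peaks of both lines gave 134197 regions, of which 39.4% were H23-only, 16.6% H3-only and 44.0% shared. These intervals, like all that follow, cover counting error only, since neighbouring regions are not independent. The lists shared 0.521 of their combined covered bases (Jaccard index). With the 101905 strongest peaks of each line, the lowest −log10 p in H23 was 5.28, and 40009 regions (32.9% of 121476) were H23-only and 25385 (20.9%) H3-only.

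Regions held by 1 line were weak and narrow beside shared ones. Median width was 235 bp for H23-only and 193 bp for H3-only regions, against 796 bp for shared regions. The median −log10 p was 6.93 in H23-only regions and 6.50 in H3-only regions, whereas shared regions had 20.1 in H23 and 13.0 in H3. A shared region joined overlapping peaks of both lines and took the highest value of each line. Its greater width and value were thus in part set by how regions were built. The part of this in the comparisons with shared regions was not tested. A peak of the other line below the cutoff lay in 313 H23-only regions (0.592%) and 871 H3-only regions (3.91%). The deposited lists held only 1229 H3 peaks and 5722 H23 peaks below the cutoff, with lowest values of 3.005 and 3.031. These shares were therefore bounded by the lists and cannot show how many regions turned on the cutoff. H3-only regions lay nearer to peaks of the other line than H23-only regions did. The H23 list was also the longer, with 124609 deposited peaks against 103134, and the part of list length was not tested. Of H23-only myoblast-stage regions, 49.9% had an H3 peak of the deposited list within 2 kb, against 76.7% of H3-only myoblast-stage regions with an H23 peak that near. In late regions these shares were 53.8% and 66.2%.

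Most line-specific regions belonged to no stage of the time course. None of the 4 times had a peak in 41747 H23-only regions (79.0%, 78.6 to 79.3) and in 17798 H3-only regions (79.8%, 79.3 to 80.4), against 19393 shared regions (32.9%). Over all regions of both lines 58.8% had none and 17.9% were stable. Of H23-only regions, 39.5% had a peak in none of the other 10 libraries, and 35.9% of H3-only regions had none, whereas 4.50% of shared regions had none. The question of stage thus concerned 11126 H23-only and 4492 H3-only regions with a peak at 1 or more of the 4 times. Most of these had a mixed combination of times outside the named classes, namely 7601 H23-only (68.3%) and 3230 H3-only regions (71.9%). Stable regions made up 1633 (14.7%) of the H23-only and 575 (12.8%) of the H3-only ones.

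Among the regions with a peak at any of the 4 times, H23-only ones were myoblast-stage far more often than late. There were 1483 myoblast-stage H23-only regions (2.80%, 2.67 to 2.95) and 409 late ones (0.774%, 0.702 to 0.852). H3-only regions were split evenly, with 335 myoblast-stage (1.503%, 1.35 to 1.67) and 352 late (1.58%, 1.42 to 1.75). Over all regions of both lines, 3.13% were myoblast-stage and 1.43% late, so the myoblast-stage share of H23-only regions lay below this background and its late share further below it. Shared regions, which include most of the strong peaks, stood at 4.03% and 1.957%. Among regions of either class, myoblast-stage ones made up 78.4% (76.5 to 80.2) in H23-only, 48.8% (45.0 to 52.5) in H3-only and 67.3% (65.8 to 68.8) in shared regions. The balance of the H23-only regions was thus tilted to the myoblast stage relative to shared regions, and that of the H3-only regions to the late one.

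**Figure D1:**
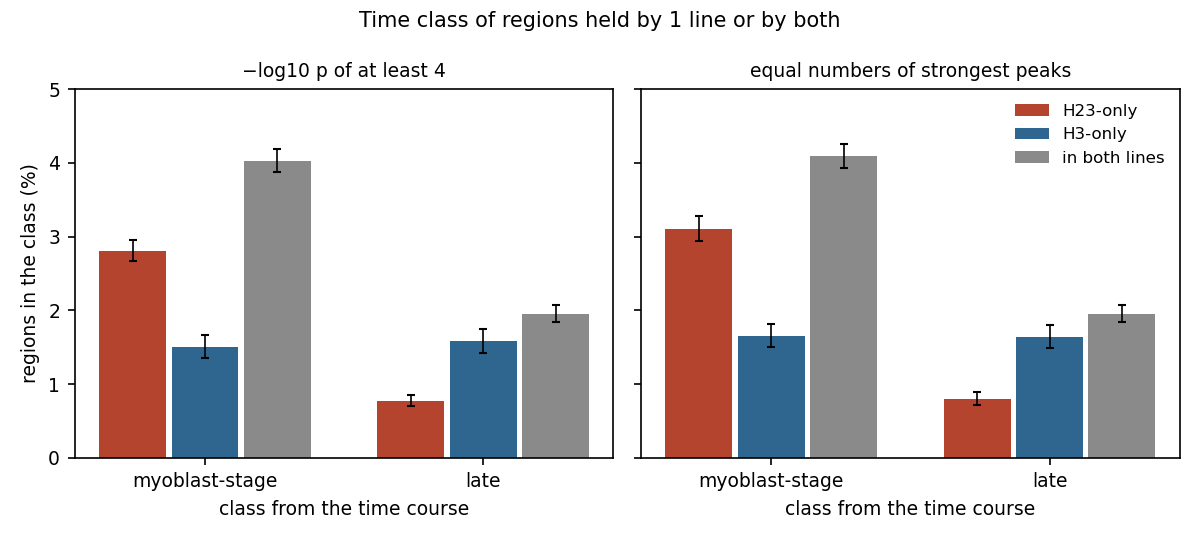
Share of H23-only, H3-only and shared regions (bars, percent of regions of that kind) that were myoblast-stage or late, with 95% Wilson intervals as error bars, for the lists with −log10 p of at least 4 (left) and for equal numbers of strongest peaks (right). Among H23-only regions 2.80% were myoblast-stage and 0.774% late, whereas H3-only regions stood at 1.503% and 1.58%.

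The myoblast-stage share was 1.30 percentage points higher in H23-only than in H3-only regions (interval 1.08 to 1.51), and the late share differed by -0.806 points (-0.992 to -0.631). Equal numbers of strongest peaks gave the same picture. H23-only regions were then 3.11% myoblast-stage and 0.795% late, and H3-only regions 1.65% and 1.64%. The backgrounds over all regions of these lists were 3.26% and 1.51%, beside 19.6% stable and 56.1% with no peak at the 4 times. Of the H23-only regions with a peak at any of the 4 times, 13.3% were myoblast-stage and 3.68% late, against 7.46% and 7.84% of the H3-only ones.

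The tilt grew with the strength of the peak, as the plot of time class by strength shows. H23-only regions with a −log10 p from 4 to 5 were 1.67% myoblast-stage and 0.659% late. From 10 to 20 they were 4.46% and 0.795%, and at 20 or more 6.57% (130 of 1978 regions) and 0.910% (18 regions). H3-only regions went the other way. From 4 to 5 they were 1.38% myoblast-stage and 1.07% late, from 10 to 20 they were 1.61% and 3.93%, and at 20 or more 4 and 8 of 147 regions were in the classes. Width gave a like split. H23-only regions of 600 to 1200 bp were 5.12% myoblast-stage and 1.04% late, against 1.33% and 3.48% of H3-only regions of that width. The opposite tilts of the lines were therefore present within bins of the same −log10 p above 10 and of the same width above 300 bp. Bins of −log10 p did not match strength between the lines, since shared regions had a median of 20.1 in H23 and 13.0 in H3. In H3-only regions of the lower bins the classes were nearly balanced, with myoblast-stage the slightly larger.

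**Figure D2:**
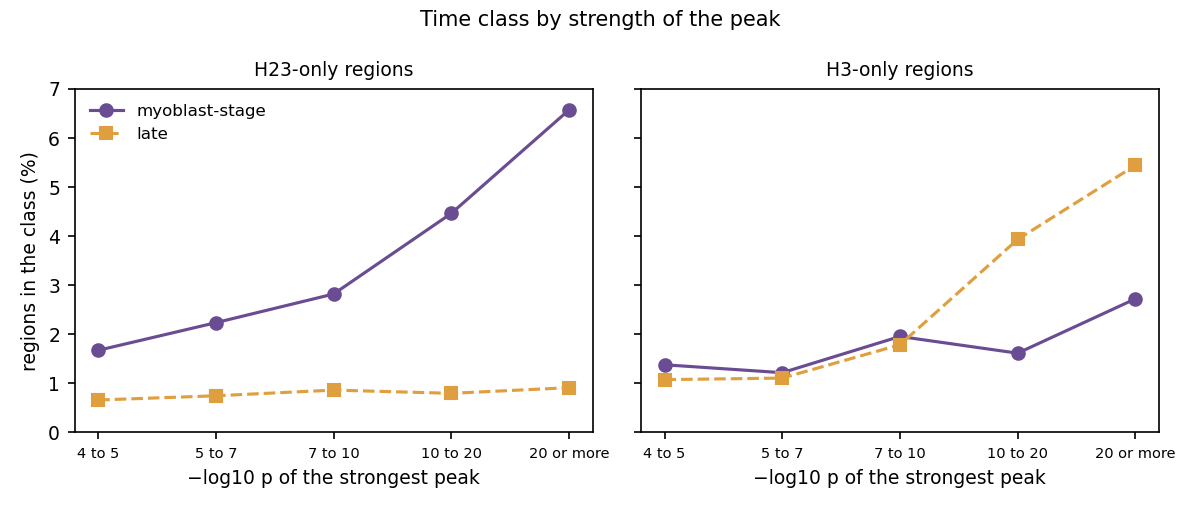
Share of H23-only regions (left) and H3-only regions (right) that were myoblast-stage (circles) or late (squares), in percent, by the −log10 p of the region's strongest peak in 5 bins. In the 10 to 20 bin the shares were 4.46% and 0.795% for H23-only and 1.61% and 3.93% for H3-only regions.

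Regions built from the time course alone, without any peak of either line, showed where the lines parted. There were 9313 myoblast-stage regions, and 66.2% (65.2 to 67.1) of them had an H23 peak, against 49.9% (48.8 to 50.9) with an H3 peak. Of the 4055 late regions, 60.05% (58.5 to 61.5) had an H23 peak and 57.5% (55.9 to 59.0) an H3 peak. Of the 31036 stable regions, 92.9% had an H23 peak and 89.2% an H3 peak. The difference was 16.3 points (15.4 to 17.2) in myoblast-stage regions, 2.59 points (1.15 to 4.03) in late ones and 3.78 points (3.50 to 4.07) in stable ones. With equal numbers of strongest peaks it was 13.6 points (12.7 to 14.5) in myoblast-stage regions and 2.86 points in stable ones. In late regions it turned to -0.764 points (-2.19 to 0.663), an interval that includes 0. The gap in points between the lines was thus wider in myoblast-stage than in stable regions under both choices of peaks. Stable regions, at 92.9% and 89.2%, left less room for such a gap. In late regions its sign depended on the choice of peaks.

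**Figure D3:**
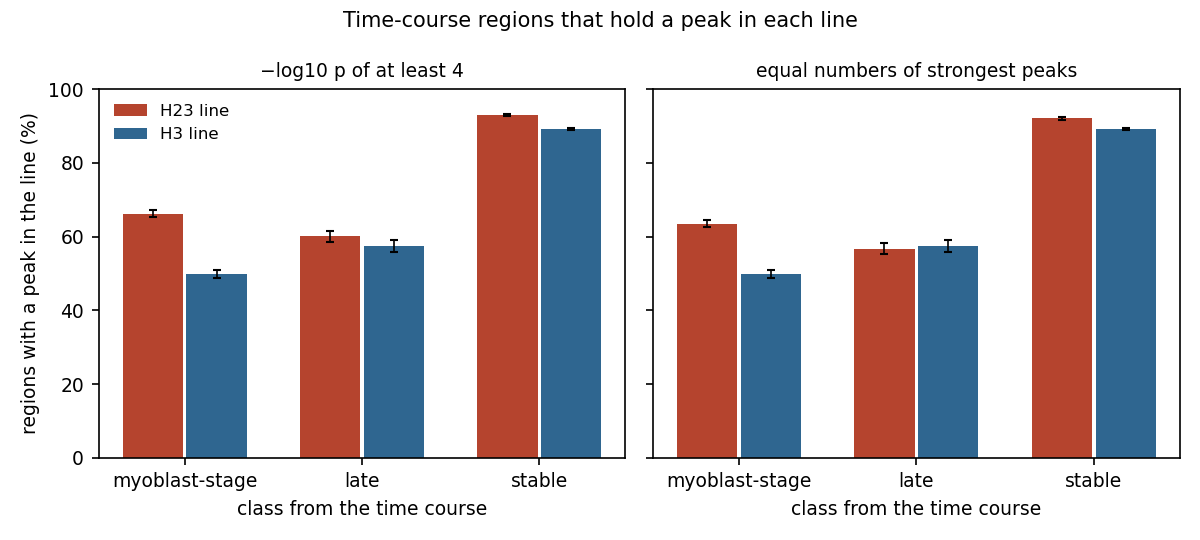
Percent of the 9313 myoblast-stage, 4055 late and 31036 stable time-course regions that held a peak of the H23 line (red) or the H3 line (blue), with 95% Wilson intervals, for −log10 p of at least 4 (left) and equal numbers of strongest peaks (right). The lines stood at 66.2% and 49.9% in myoblast-stage regions (left) and close together in late ones.

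The regions that only 1 of the lines held were counted as well. In the myoblast-stage class 4344 regions had a peak in both lines, 1820 in H23 alone, 299 in H3 alone and 2850 in neither. In the late class the counts were 1939 in both, 496 in H23 alone, 391 in H3 alone and 1229 in neither. H23 thus held 85.9% of the myoblast-stage regions found in 1 line and 55.9% of the late ones, beside 78.3% of the stable ones. With equal numbers of strongest peaks these were 81.1%, 48.2% and 71.4%. Where wild-type cells also had a peak at 48 h, 680 myoblast-stage regions were in H23 alone and 109 in H3 alone, whereas late regions stood at 210 and 216. With equal numbers, late regions with a wild-type peak were found in H23 alone in 186 cases and in H3 alone in 254, a difference of -3.15 points (-5.04 to -1.25).

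In regions that both lines held, strength also differed by class. Each shared region was given its percentile of −log10 p within each line over the 59034 shared regions. The 2379 myoblast-stage ones had a median percentile of 46.5 in H23 and 40.4 in H3, and 57.7% of them ranked higher in H23. The 1155 late ones had a median percentile of 37.2 in H23 and 48.8 in H3, and 37.5% ranked higher in H23. Stable regions stood at 78.0 in H23 and 78.1 in H3. The median difference per region was 4.20 percentile points in myoblast-stage and -5.92 in late regions. Without the 6 chromosomes described below, on which H3-only regions were frequent, it was 7.20 and -4.43 points, and 1.09 in stable regions.

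The H34 line, the other line with a pair of deletions that includes H3, stood near H23 rather than H3 in these classes. A peak was found in 65.7% of myoblast-stage and 62.1% of late regions in H34. The H1 line had one in 52.7% and 77.3%, the Myod1 knockout in 18.9% and 20.3%, and wild-type cells in 44.7% and 53.3%. As myoblast-stage minus late percentage, H23 stood at 6.14 points, H34 at 3.56, H3 at -7.60, wild type at -8.63 and H1 at -24.6. With the 101905 strongest peaks of each hotspot line H23 stood at 6.74 points, H34 at 4.65, H3 again at -7.60 and H1 at -26.8. H3 was therefore close to wild type in this balance, but at unlike list sizes, with 101905 peaks against 71281. Wild type was not in the equal-number comparison. The Myod1 knockout, with 55585 peaks, stood at -1.41 points. H23 and H34 lay on the other side of 0.

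In the other libraries, H23-only and H3-only regions were covered to different degrees. H34 had a peak in 62.2% of the H23-only myoblast-stage regions and in 59.7% of the H3-only ones, whereas H1 had one in 40.1% and 50.1%. Among late regions, H1 had a peak in 70.4% of H23-only and 85.5% of H3-only ones, and H34 in 59.4% and 47.7%. Wild-type cells at 48 h had a peak in 36.3% of H23-only and 33.1% of H3-only myoblast-stage regions, and in 41.1% and 50.3% of the late ones. In the Myod1 knockout the myoblast-stage regions with a peak were 13.01% of H23-only and 3.58% of H3-only ones. Over all H23-only regions the knockout shared 6.21%, over all H3-only regions 2.69%, so its higher share was not limited to that class. Over all H23-only and H3-only regions H34 had a peak in 39.9% and 35.3%, H1 in 29.6% and 40.7%, and wild-type cells in 15.3% and 17.4%, so the contrasts in late regions run the same way as those over all line-specific regions.

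Most line-specific myoblast-stage regions also had a peak in early differentiation in the time course. At 6 h a peak was found in 60.8% of H23-only and 62.1% of H3-only myoblast-stage regions, and at 12 h in 65.4% and 66.6%. Late regions of both lines had often begun by 12 h, with a peak in 72.9% of H23-only and 66.8% of H3-only ones.

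Although H23 held more of the myoblast-stage regions, its list as a whole overlapped every time course list less than that of H3. The Jaccard index with the -24 h list was 0.253 for H23 and 0.291 for H3, and with the 72 h list 0.230 and 0.284. With equal numbers of strongest peaks the H23 values were 0.261 and 0.237. H34 was nearer to H23, at 0.547, than to H3, at 0.513. The longer covered length of H23 bears on all of these, and its part was not tested.

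The strongest H23-only myoblast-stage region lay on chromosome 19 at 34443292 to 34444158 (build mm9, counted from 1). It had a −log10 p of 78.7 and a fold enrichment of 22.7, and the nearest H3 peak was 62.2 kb away. It also had a peak at 6 and 12 h and in the H34, H1 and wild-type libraries. The next lay on chromosome 5 at 121225110 to 121225815, with a −log10 p of 60.01, and no other library at 48 h had a peak there. That on chromosome 11 at 65256543 to 65257175, with 48.0, was 280 kb from the nearest H3 peak and was found at 48 h in the Myod1 knockout as well. Closeness to an H3 peak varied widely. The region on chromosome 19 at 4794085 to 4794895 had 57.1 in H23 and an H3 peak 0.171 kb away, and that on chromosome 18 at 12476207 to 12478862 had 45.7 and an H3 peak at 0.260 kb.

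The widest H23-only myoblast-stage region, of 3986 bp, lay on chromosome 11 at 90936981 to 90940966, with the nearest H3 peak 242 kb away. Its peak at -24 h had a score of 10.9 and that at 0 h a score of 5.16. After the wide region on chromosome 18 given above came one on chromosome 4 that spanned 32261050 to 32263166. It was followed by one on chromosome 1 that spanned 155410911 to 155412978, and by one on chromosome 19 that spanned 28369600 to 28371652. These 3 regions also had a peak at 6 and 12 h and in the H34, H1 and wild-type libraries at 48 h.

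Late regions of the H23 line alone were fewer, and those at the top were weaker than the top myoblast-stage ones. The strongest was on chromosome 17 at 81801797 to 81803062, with a −log10 p of 48.3 and the nearest H3 peak 337 kb away. A region on chromosome 14 at 66490508 to 66491817, with 40.2, had a peak at 6, 12, 24 and 72 h and in all 4 other libraries at 48 h. That on chromosome 15 at 42126991 to 42128045, with 35.0, was 346 kb from an H3 peak. The widest, of 1839 bp, was on chromosome 10 at 5613044 to 5614882.

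Values of −log10 p ran lower in H3 than in H23 in shared regions too, with medians of 13.0 and 20.1. Strong H3-only regions of both classes had lower −log10 p values within the H3 list than those of H23 had within theirs. The strongest myoblast-stage one, of 2440 bp, lay on chromosome 15 at 78149270 to 78151709, with 31.4, beside another at 78147946 to 78149121, with 21.7. Both had a peak in the H34 and H1 libraries, and the nearest H23 peak was 10.1 kb from the wider. The strongest late one lay on chromosome 4 at 99728701 to 99729482, with 23.1, and that on chromosome 17 at 32346971 to 32349252 was the widest, at 2282 bp. Over the 8 late H3-only regions chosen for strength or width, all had a peak in the H1 library, and 3 had one in H34. Over all 352 late H3-only regions these shares were 85.5% for H1 and 47.7% for H34, so the chosen regions are not set apart by them.

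Line-specific regions also came in runs, in which consecutive regions of the merged set were held by the same line. There were 506 runs of 10 or more H23-only regions, holding 7726 regions (14.6%), and 82 such runs of H3-only regions, holding 1353 (6.07%). No peak at any of the 4 times was found in 78.5% of the H23-only regions in runs, close to the 79.0% of all H23-only regions, and in 87.3% of the H3-only ones, against 79.8% of all H3-only regions. The longest H23-only run had 48 regions over 649 kb of chromosome 15, at 53951687 to 54600494, and none of them was myoblast-stage or late. The second, of 47 regions, was dense, filling 69.8 kb of chromosome 14 at 66489971 to 66559741. It held the late region on that chromosome named above.

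The third run differed from these in its time course. It had 46 regions over 750 kb of chromosome 4, at 104857885 to 105608134, with 6 myoblast-stage, 1 late and 4 stable. In the time course, 17 of them had a peak at -24 h and 18 at 0 h, 15 each in the 6 and 12 h lists, 12 in the 24 h list and 8 in the 72 h list. H34 had a peak in 30, wild-type cells in 14, H1 in 11 and the Myod1 knockout in 2. The map of this run shows that H3 peaks lay at its flanks and none within it, while every other library had some.

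**Figure D4:**
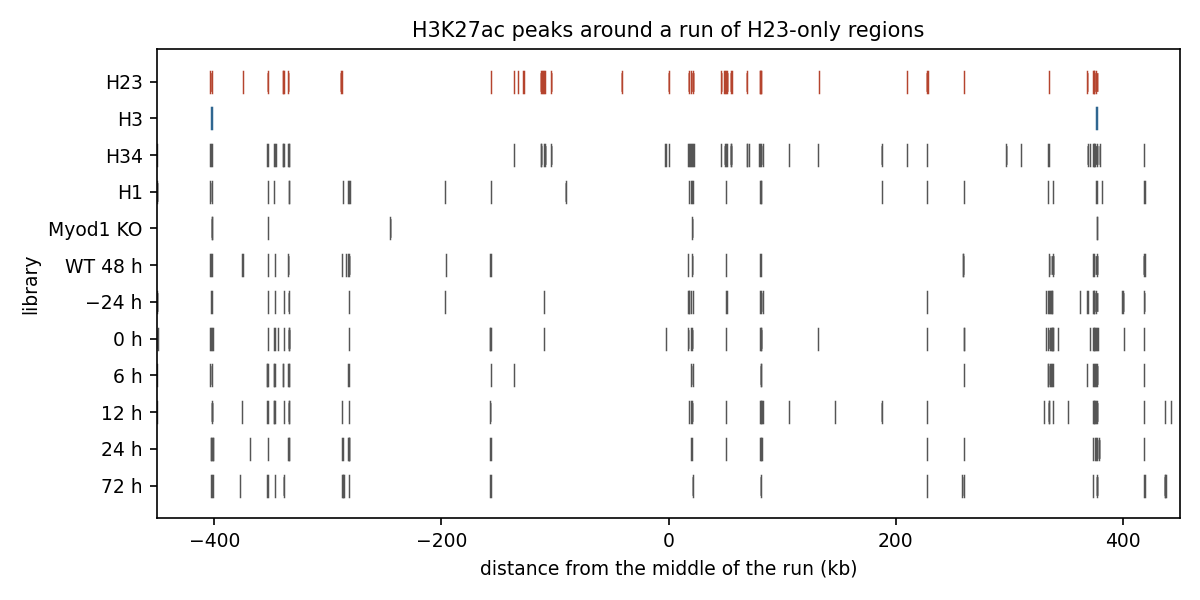
Position of every peak (vertical marks, drawn at least one line wide) in the 12 libraries around the third longest H23-only run, as distance in kb from its middle, with −log10 p of at least 4 in the 48 h libraries. In this window the H23 list held 49 peaks and the H3 list 4, at the 2 ends, whereas the H34 list held 62.

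The 3 longest H3-only runs had no myoblast-stage or late region. The first, with 53 regions, spanned 128428806 to 129347226 on chromosome 10. The second, with 46, spanned 106526611 to 106687369 on chromosome 3, and the third, with 43, spanned 7309446 to 8263064 on chromosome 11. H34 had a peak in 35 of the regions of the first, 33 of the second and 4 of the third. The Myod1 knockout had none in any of the 3 runs. Over all 82 H3-only runs, 7 of the 1353 regions were myoblast-stage and 24 late, beside 1.503% and 1.58% of all H3-only regions. Over the 506 H23-only runs the counts were 206 and 55 of 7726, beside 2.80% and 0.774% of all H23-only regions.

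Whole chromosomes differed as well. Chromosome 13 was the one on which H3-only regions outnumbered H23-only ones, with 20.1% of its regions H23-only and 34.7% H3-only, against medians of 40.1% and 14.6% over 20 chromosomes. H3-only regions also made up over 20% of the regions on chromosomes 3 (25.3%), 6 (24.5%), 17 (23.4%), 14 (21.6%) and 10 (20.3%). Chromosome 12 was at the other end, with 52.9% H23-only and 10.8% H3-only. Chromosome 13 held 2.90% of the covered bases in H23, 4.52% in H3 and 5.09% in wild-type cells, and chromosome 12 held 4.37%, 3.27% and 3.93%. Over all regions of both lines, 4197 were myoblast-stage and 1916 late. Myoblast-stage regions outnumbered late ones among H23-only regions on all 20 chromosomes, by 1.59 to 7.50 times. The highest ratio was that of chromosome 13, with 45 against 6. Among H3-only regions myoblast-stage ones were the more numerous on 9 chromosomes, and late ones on 11. On chromosome 13 the H3-only regions included 59 myoblast-stage and 42 late ones. Without the 6 chromosomes, 2.75% of H23-only regions were myoblast-stage and 0.751% late, against 1.31% and 1.62% of H3-only ones.

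**Figure D5:**
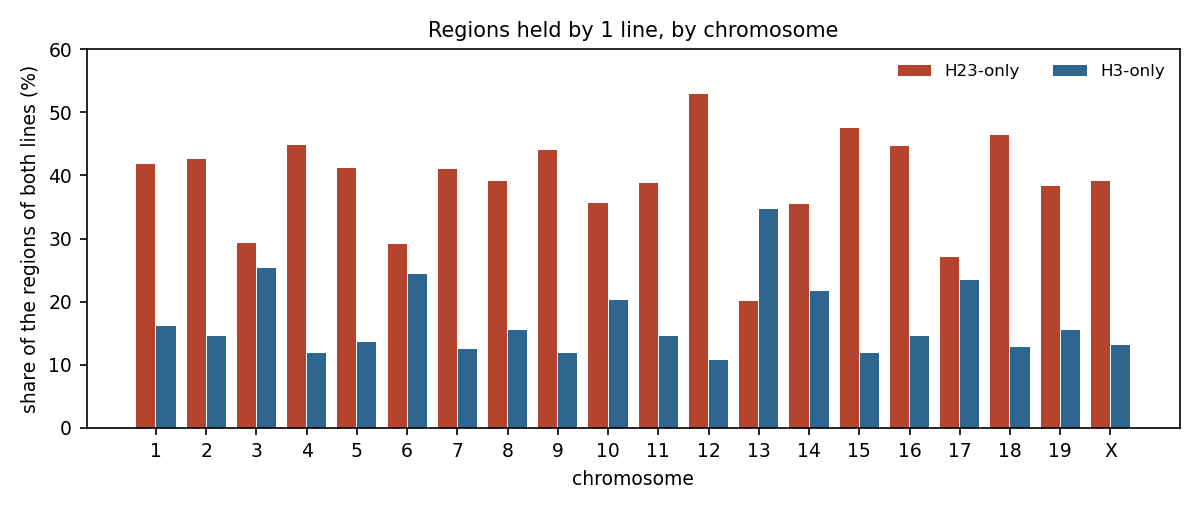
Percent of the merged regions of each chromosome that were H23-only (red, left bar) or H3-only (blue, right bar). Chromosome 13, at 20.1% and 34.7%, was the one on which the H3-only bar was the taller.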

How the data were processed

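Peak lists of H3K27ac were read as deposited, 1 per library. MACS2 2.1.0 and the build mm9 are named in the submitters' processing notes. The aligner, filters, control library and cutoffs are not given in the sources used here. The lists of the 48 h libraries held, as the authors deposited them, for each peak a score, a fold enrichment, a −log10 p-value and a −log10 q-value, in MACS2's order. The deposited time course lists held a score with no stated unit. Values were used to filter and rank within a list, and the 48 h libraries differ from the time course in file format too. Depth was unknown.

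Peaks on the assembled chromosomes with −log10 p of at least 4 were kept in every 48 h list. Overlap meant 1 base, and regions merged overlapping peaks of both lines. Equal numbers meant the strongest by −log10 p. The interval of a difference between shares of the same regions allowed for their common total, and otherwise was Newcombe's. Named regions were taken from the 5 strongest and 5 widest of each line and class and the 3 longest runs. The members, classes and lists were chosen with earlier results of these data known. Alternatives changed the cutoff, overlap, merging, time lists and class rule, and 2 were added after the data were seen. No gene list was run and no sequence is printed, since no genome or annotation of mm9 was used. On 20000 simulated regions the overlap code recovered 100% of the lines and classes. Python 3.11.15, numpy 2.4.6, pandas 2.3.3, scipy 1.17.1 and matplotlib 3.10.9 were used.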

Additional observations from a re-analysis of the deposited data

How the results depend on the processing

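No paired analysis was possible because each condition had 1 library, and for the same reason none could be left out. Of 147 alternatives over 17 results, 76 stayed within the counting interval (counts within 1.5 times) and 71 moved. A change of sign was looked for only in the myoblast-stage minus late difference of H23-only regions and in the shared percentile differences, and 0 were found. The H23 minus H3 difference in late time-course regions was not among the 17 results. It was 2.59 points (1.15 to 4.03), and -0.764 points with equal numbers of strongest peaks. In all of the 12 settings H23-only regions were myoblast-stage more often than late and more often than H3-only regions. The myoblast-stage minus late difference of H3-only regions was -0.0763 points, and its sign varied with the setting, from -1.15 to 0.144. The cause of the changes below was not tested.

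Without a −log10 p cutoff, 41.0% of regions were H23-only and 15.8% H3-only, with a Jaccard index of 0.518. At a −log10 p of at least 5, 38.3% were H23-only, 3.04% of these were myoblast-stage (difference to late 2.21 points) and the index was 0.526. Time-course regions then had a peak in H23 and H3 in 64.9% and 48.2% (myoblast-stage) and 57.9% and 55.9% (late). At a −log10 q of at least 3, 38.8% were H23-only, 16.3% H3-only and 2.997% of H23-only regions myoblast-stage, with an index of 0.525. Time-course regions had a peak in 65.2% and 48.4% (myoblast-stage), and in 58.2% (late, H23). Equal numbers of strongest peaks gave 32.9% H23-only and 20.9% H3-only regions, 3.11% myoblast-stage (difference 2.31 points), an index of 0.532, and 63.4% and 56.7% of myoblast-stage and late time-course regions with an H23 peak.

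Merging within 1 kb left 18359 H23-only (31.5%) and 6537 H3-only regions (11.2%), with an index of 0.547. H23-only regions were 3.08% myoblast-stage and 0.872% late (difference 2.21 points), and H3-only ones 1.21% myoblast-stage (difference -0.337 points). H23 and H3 then had a peak in 62.3% and 44.8% of myoblast-stage and 58.4% and 53.6% of late time-course regions. With absence judged on the whole list of the other line, 16.0% were H3-only. An overlap of 50% of the shorter gave 39.9% H23-only and 18.3% H3-only. H23-only regions were then 2.39% myoblast-stage and 0.628% late (difference 1.76 points), and 1.245% of H3-only ones were late. These last 2 settings give no Jaccard index and no value for time-course regions.

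With equal numbers in the time lists, 2.315% of H23-only and 1.27% of H3-only regions were myoblast-stage (difference in H23-only 1.49 points). H23 and H3 had a peak in 69.6% and 54.0% of myoblast-stage and 63.9% and 59.9% of late time-course regions. When either early and either late time sufficed, H23-only regions were 8.35% myoblast-stage and 4.32% late (difference 4.03 points), and H3-only ones 5.69% and 6.84% (-1.15 points). Time-course regions had a peak in 53.2% and 38.8% (myoblast-stage) and 48.5% and 42.6% (late). A score of at least 5 in the time lists moved none of these values. Chosen after the data were seen, leaving out 6 chromosomes gave 43.0% H23-only and 13.6% H3-only regions (13250), of which 1.31% were myoblast-stage (difference -0.309 points), and shared percentile differences of 7.20 (myoblast-stage) and -4.43 points (late). Leaving out runs of 10 or more gave 36.1% H23-only.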

Other observations

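Peaks a short distance apart were joined into domains within each line, to see whether line-specific regions made up whole domains. Of 6984 H23 domains with at least 5 peaks, 400 (5.73%) held no H3 peak, and of 5988 H3 domains 73 (1.22%) held no H23 peak. The 2889 peaks of the 400 H23 domains included 107 myoblast-stage and 25 late ones, and 73.9% had no peak at any of the 4 times. The 552 peaks of the 73 H3 domains included 6 myoblast-stage and 8 late ones, and 89.7% had none. Over all line-specific regions, no peak at any of these times was found in 79.0% of H23-only and 79.8% of H3-only ones. Myoblast-stage and late shares were 2.80% and 0.774% over all H23-only regions, and 1.503% and 1.58% over all H3-only regions.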
